A study of Mus musculus with 17 samples.

Results

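The genes described here are 9 transcription factors that drive the epithelial to mesenchymal transition (EMT): Snai1, Snai2, Snai3, Zeb1, Zeb2, Twist1, Twist2, Prrx1 and Foxc2. They were chosen by name from a table of read counts for 43629 mouse genes, and all 9 were among the 22671 genes abundant enough to test. The counts came from total RNA of 17 libraries in 8 groups, built around ID8, a mouse ovarian surface epithelial cell line. The study asked how the state of these cells along the epithelial to mesenchymal axis changes with the tissue they grow in.

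Every tumour and ascites sample came from mice given ID8 cells. The subcutaneous tumours (n = 2, numbered 2 and 3) grew under the skin, on the flanks per the protocol and on the scruff per the sample labels. The intestinal metastases (n = 3) were solid tumours on the intestine that followed tumours of the ovary. The second ascites tap (n = 3) and the first ascites tap (n = 3) were peritoneal fluid with its cells, drawn in turn. A later tap named in the protocol is not analysed here. The orthotopic tumours (n = 3) followed injection into the bursa around the right ovary. The line itself, grown in medium with serum, healthy C57BL6 ovary and healthy C57BL6 intestine were 1 untreated library each. The labels give neither the age of the mice nor which samples shared a mouse.

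In EMT, epithelial cells lose their junctions and polarity and take on the shape, matrix and motility of mesenchymal cells. SNAI and ZEB proteins are zinc finger repressors that bind short E-box motifs in the promoters of junction genes such as Cdh1, which encodes E-cadherin. TWIST proteins are basic helix-loop-helix factors, PRRX1 is a homeobox factor and FOXC2 a forkhead factor, and all are also known from normal mesenchyme of the embryo and adult. In ovarian cancer these factors are studied in tumour cells that spread through peritoneal fluid, but several are also made by normal stroma and immune cells.

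The E-box bound by SNAI and ZEB proteins was searched as CAGGTG and its reverse complement CACCTG, in capitals here, in the 250 bases before each start site listed by RefSeq on GRCm38.p6. Of the 9 factors, 5 had listed promoters, and of their 8 windows only that of Snai1 held the motif, once. Of 20 epithelial genes named in the literature as repressed by these factors, 14 had listed promoters, and 11 of the 14 had a window with the motif. By window this was 13 of 20, or 65%, against 5657 of 32851 windows, or 17.2%, over all promoters. The list was drawn from known targets, so this share describes the list and is no test. The windows shown are those of Snai1 (chr2:167537945-167538194, plus strand, motif starting at -126 from the start site), of the polarity gene Crb3 (chr17:57061951-57062200, plus strand, motifs at -118, -63 and -7) and of the adhesion gene Epcam (chr17:87635729-87635978, plus strand, motifs at -187 and -19), because Snai1 is the repressor called lower in both taps and the other 2 are targets that rose in intestinal metastases.
Snai1: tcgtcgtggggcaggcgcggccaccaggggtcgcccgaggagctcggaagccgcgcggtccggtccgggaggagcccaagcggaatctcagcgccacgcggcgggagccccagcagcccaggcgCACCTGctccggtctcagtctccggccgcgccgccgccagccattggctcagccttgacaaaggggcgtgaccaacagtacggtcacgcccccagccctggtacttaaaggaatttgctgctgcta
Crb3: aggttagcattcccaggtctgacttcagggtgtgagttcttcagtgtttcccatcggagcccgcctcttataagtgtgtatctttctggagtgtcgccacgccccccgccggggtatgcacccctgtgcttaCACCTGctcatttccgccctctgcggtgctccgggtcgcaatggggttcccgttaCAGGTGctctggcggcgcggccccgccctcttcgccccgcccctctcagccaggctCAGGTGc
Epcam: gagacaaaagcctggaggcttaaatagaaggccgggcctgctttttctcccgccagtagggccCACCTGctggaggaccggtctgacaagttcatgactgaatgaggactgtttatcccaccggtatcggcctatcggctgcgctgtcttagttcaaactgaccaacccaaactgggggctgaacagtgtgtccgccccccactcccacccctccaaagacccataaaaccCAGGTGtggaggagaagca
A match to these letters is not evidence of binding. Promoter sequences for Snai2, Snai3, Zeb1, Foxc2 and Cdh1 were not used here.

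Library totals ran from 12031221 counts in intestinal metastasis 1 to 38902048 in orthotopic tumour 1, with a median of 27342134. Levels are given in CPM, a gene's counts scaled to a common library total and corrected for library composition with TMM factors. Subcutaneous tumour 3, first tap 3 and second tap 1 had 33393, 32846 and 32775 genes with a count, against 21157 to 26838 in the other libraries. The subcutaneous tumours were the least alike of any group, with a correlation of log CPM across genes of 0.867, against 0.967 to 0.981 between orthotopic tumours. Markers of the sampled tissue were present in the intestinal and ascites samples. They do not show how many tumour cells a sample held. The 10 intestinal epithelial markers summed to 6291 to 19350 CPM in intestinal metastases and 16790 CPM in healthy intestine, against 62.7 to 144 CPM in orthotopic tumours. The 11 macrophage markers summed to 2283 to 16350 CPM in ascites, against 13.8 CPM in the cultured line. All samples but the line were bulk tissue or fluid, in which fewer cells of a type and less RNA per cell cannot be told apart.

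**Figure D1:**
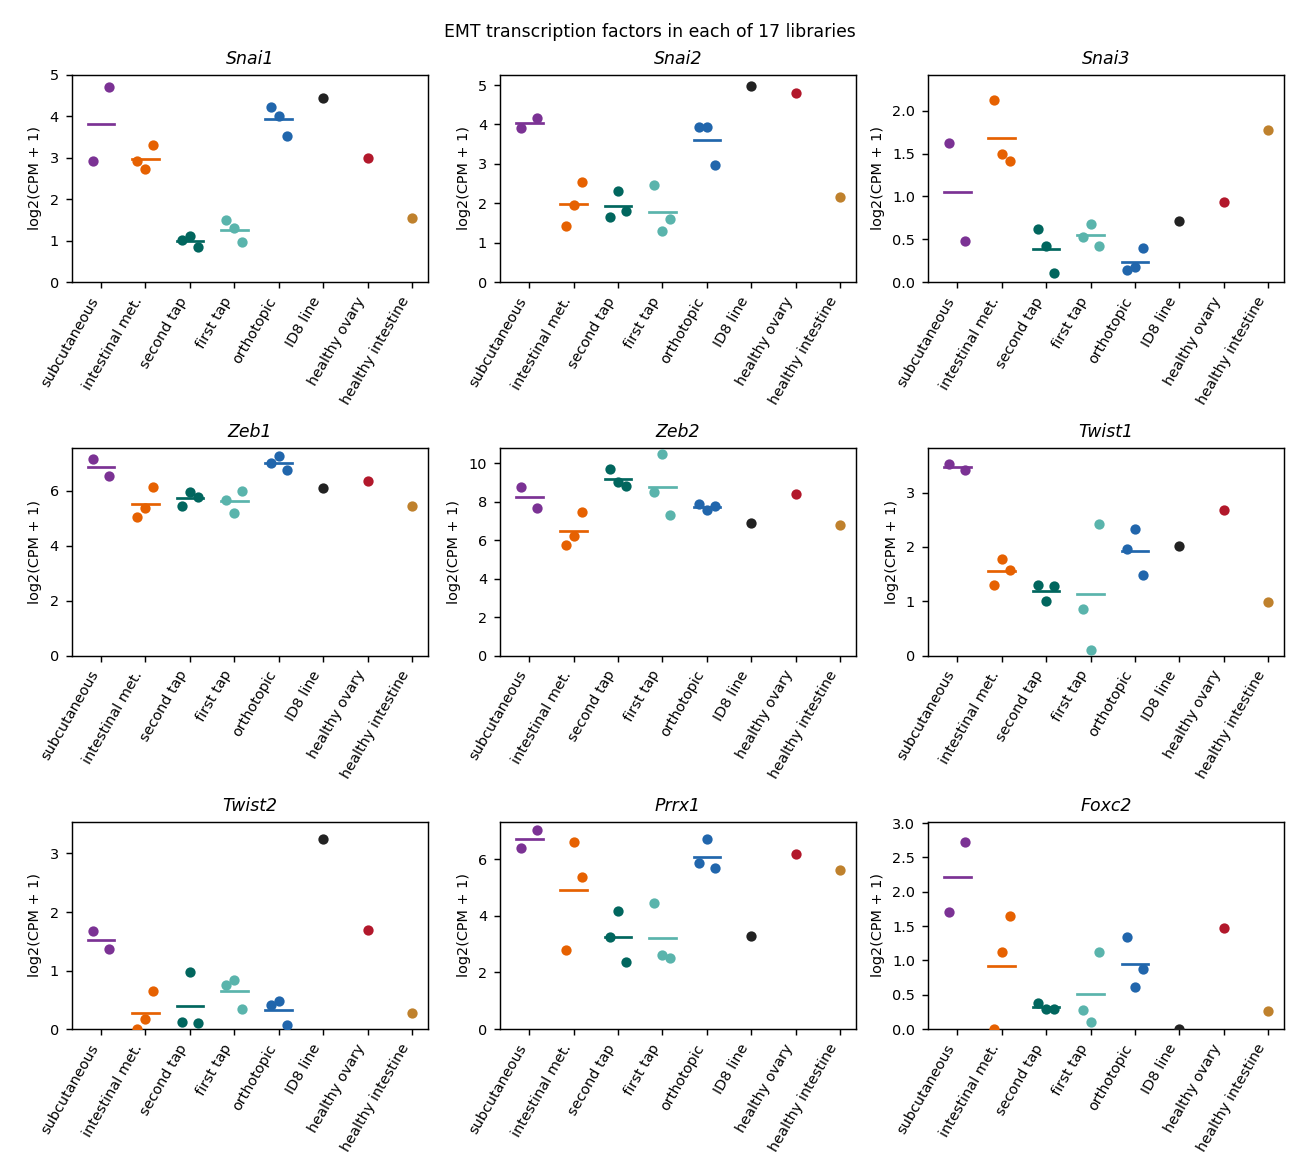
Levels of the 9 EMT transcription factors in each of 17 libraries, as log2(CPM + 1). Each point is a library and each bar the mean of a group with 2 or 3 libraries. Snai1 was lowest in the 6 ascites libraries, Zeb2 was lowest in intestinal metastases 1 and 2, and Twist2 was highest in the line.

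Each factor varied widely over the 17 libraries. In CPM, which do not correct for the length of a gene, Zeb2 had 53.3 to 1443 CPM and Zeb1 31.6 to 152 CPM. Prrx1 ranged from 4.11 to 129 CPM, Snai2 from 1.47 to 30.3 CPM and Snai1 from 0.808 to 25.1 CPM. Twist1 reached 10.46 CPM, Twist2 8.48 CPM, Foxc2 5.60 CPM and Snai3 3.36 CPM. To set factors side by side, levels were divided by the joint length of all annotated exons of a gene. The order between factors depends on that choice of length. Per kilobase of exon, the line gave Snai2 15.0 and Snai1 12.7 CPM, above 6.57 CPM for Zeb1 and 5.84 CPM for Zeb2. In the second tap, per kilobase, Zeb2 had 22.9 to 41.2 CPM and Snai1 0.498 to 0.706 CPM. In orthotopic tumours, per kilobase, Zeb1 had 10.4 to 14.8 CPM, Zeb2 9.34 to 11.7 CPM and Snai1 6.46 to 11 CPM. On this scale the factor with the highest level was Snai2 in cultured ID8 cells and Zeb2 in the second tap. In orthotopic tumours Zeb1, Zeb2 and Snai1 had overlapping ranges. Prrx1, at 4.6 to 9.33 CPM per kilobase, and Snai2, at 3.39 to 7.03, overlapped Snai1 there.

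Ascites carried far less Snai1 than the ovarian tumours, in both taps. Snai1, whose protein is the SNAI factor best known for silencing Cdh1, lies at chr2:167538195-167542814 on the plus strand (GRCm38). It had 1.01, 1.14 and 0.808 CPM in the second tap and 1.81, 1.47 and 0.956 CPM in the first tap, against 17.8, 15.1 and 10.47 CPM in orthotopic tumours. The lowest orthotopic tumour stood well above the highest ascites library, and the taps overlapped. Snai1 fell by 3.87 ± 0.53 (log2 fold change ± SE) in the second tap against orthotopic tumours (edgeR adjusted p = 0.0159), and by 3.35 ± 0.51 in the first tap (adjusted p = 0.0195). It was the only 1 of the 9 factors called in either comparison, where called means an adjusted p under 0.05 over all 22671 genes, and where 1.09% of genes were called for the second tap and 1.58% for the first. DESeq2 called 4 factors in each, adding Snai2, Zeb1 and Prrx1 in both, among 8.91% of genes for the second tap and 11.4% for the first. The second-tap call did not hold without orthotopic tumour 1 or 2 or any 1 of the second-tap libraries (adjusted p = 0.0597 to 0.0941), and the first-tap call did not hold without orthotopic tumour 1 or 2 or first tap 2 (0.0655 to 0.0697), while the fold change stayed between -4.23 and -3.17 throughout.

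Snai2 (chr16:14705852-14709385, plus strand), known as Slug and active in neural crest migration, was also low in ascites. It had 2.13, 4.003 and 2.50 CPM in the second tap and 4.52, 1.47 and 2.03 CPM in the first tap, against 14.2, 14.2 and 6.84 CPM in orthotopic tumours. No ascites library reached the lowest orthotopic tumour. Such separation held for 7 of the 9 factors in the second tap and 5 in the first, and for 31.4% and 24.6% of all genes. The log2 fold changes were -2.03 ± 0.53 in the second tap and -2.13 ± 0.53 in the first (edgeR adjusted p = 0.0869 and 0.0661), so neither was called. Zeb1 (chr18:5591860-5775467, plus strand), a repressor of Cdh1 and of microRNAs that hold the epithelial state, gave a similar picture. It had 42.7, 61.2 and 54.2 CPM in the second tap and 49.5, 35.3 and 63.1 CPM in the first tap, against 128, 152 and 107 CPM in orthotopic tumours, without overlap. Its log2 fold changes were -1.29 ± 0.34 and -1.38 ± 0.34 (adjusted p = 0.0922 and 0.0649).

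Prrx1 (chr1:163245119-163313710, minus strand), known from limb and craniofacial mesenchyme and from fibroblasts, had 8.53, 16.9 and 4.11 CPM in the second tap and 21.1, 5.18 and 4.74 CPM in the first tap, against 56.95, 103 and 50.9 CPM in orthotopic tumours. Every ascites library was below every orthotopic tumour. The log2 fold changes were -2.84 ± 0.90 and -2.77 ± 0.90, not called by edgeR (adjusted p = 0.148 and 0.129). Some stromal markers fell too, while most fibroblast markers were not called. Of 10 fibroblast markers 2 fell in the second tap and 3 in the first, with no rise. Of 9 endothelial markers 5 and 6 fell, where 0.578% and 0.891% of all genes fell. Fibroblast sums were 558.5 to 982.3 CPM in the second tap and 191.3 to 1353 CPM in the first. These overlapped the 908.5 to 1551 CPM of orthotopic tumours. Endothelial sums, at 123 to 193 and 53.1 to 281 CPM, lay below the 343 to 600 CPM of orthotopic tumours. The part of stromal cells in the levels of Snai1, Snai2 and Prrx1 was not tested.

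Zeb2 (chr2:44983632-45117395, minus strand), the partner of Zeb1 in the family and also a factor of macrophage and other immune cell development, ran the other way. It had 822, 520 and 456 CPM in the second tap and 364, 1443 and 160 CPM in the first tap, against 233, 186 and 215 CPM in orthotopic tumours. The second tap stood above all orthotopic tumours, while first tap 3 was the lowest of these 9 libraries. The log2 fold changes were 1.503 ± 0.69 and 1.63 ± 0.70 and were not called (adjusted p = 0.309 and 0.228). Without first tap 2 the first-tap value was 0.19.

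Macrophage markers were higher in ascites too. Of 11 markers (Adgre1, Csf1r, Cd68, Mrc1, C1qa, C1qb, C1qc, Itgam, Lyz2, Cd14 and Marco), 7 rose in the second tap and 7 in the first against orthotopic tumours, and none fell, where 0.516% and 0.688% of all genes rose. Their summed level was 9244, 7685 and 5544 CPM in the second tap and 2283, 16350 and 3773 CPM in the first tap, against 511, 367 and 635 CPM in orthotopic tumours. First tap 2, with 1443 CPM of Zeb2, was the highest library for the markers too. The second-tap libraries ran in the same order for both, while first taps 1 and 3 ran in opposite order. First tap 3 had less Zeb2 than any orthotopic tumour but a marker sum of 3773 CPM. First tap 1 had the lowest sum in ascites with 364 CPM of Zeb2. The line had 116 CPM of Zeb2 with 8 of the 11 markers at 0 counts, all but Csf1r, Cd68 and Cd14. The part of macrophages in the Zeb2 level of ascites was not tested.

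The ratio of Zeb1 to Zeb2 within a library does not depend on scaling, and since it is not corrected for exon length it is read here only between libraries. The log2 ratio of counts was -4.27, -3.09 and -3.07 in the second tap and -2.88, -5.35 and -1.34 in the first tap, against -0.87, -0.30 and -1.01 in orthotopic tumours. The ratio was lower in each ascites library than in any orthotopic tumour. Snai2 against Snai1 gave the opposite order. That log2 ratio was 1.07, 1.80 and 1.61 in the second tap and 1.32, 0.00 and 1.07 in the first tap, against -0.33, -0.09 and -0.61 in orthotopic tumours. Snai2 counts equalled or exceeded Snai1 counts in ascites and were below them in orthotopic tumours.

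**Figure D2:**
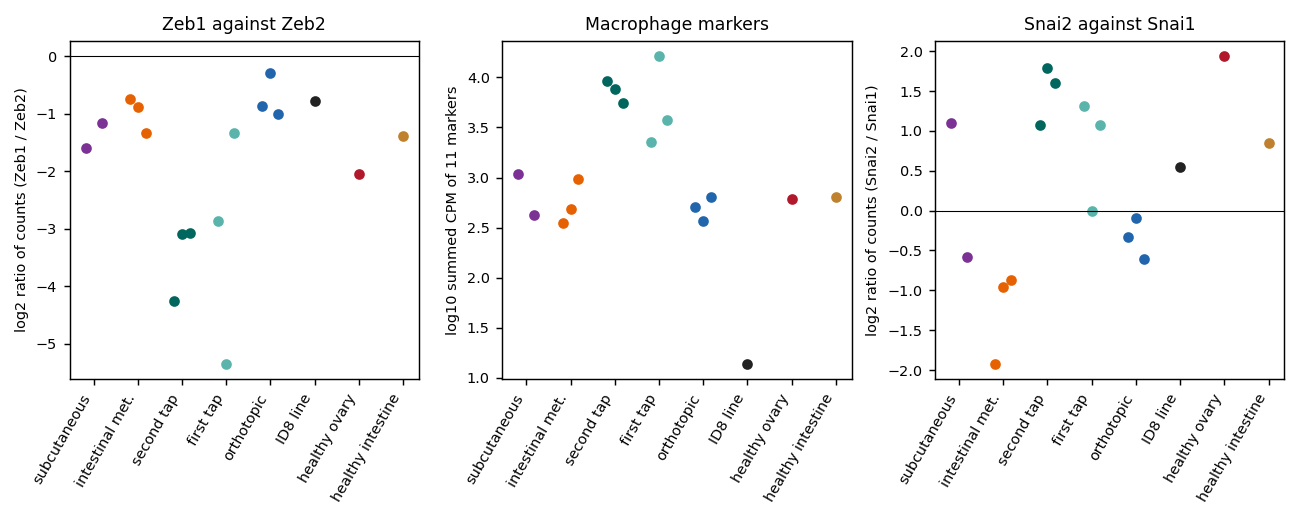
Left, log2 ratio of Zeb1 to Zeb2 counts in each library. Middle, log10 of the summed CPM of 11 macrophage markers. Right, log2 ratio of Snai2 to Snai1 counts. The lowest Zeb1 to Zeb2 ratio, -5.35 in first tap 2, belongs to the library with the highest macrophage sum, 16350 CPM, and the cultured line has the lowest sum, 13.8 CPM.

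No factor was called between the second tap and the first. None of the 9 had an unadjusted p under 0.05 (0.64% of all genes did), DESeq2 called none (0.00441% of genes), and 0% of all genes were called by edgeR. Snai1 averaged 0.986 ± 0.169 CPM in the second tap and 1.41 ± 0.43 CPM in the first (SD, n = 3 each). The ranges of the taps overlapped for all 9 factors, while 2.92% of all genes had ranges that did not. Twist1, a driver of mesoderm formation, had 1.45, 1.00 and 1.43 CPM in the second tap and 0.821, 0.0756 and 4.36 CPM in the first. The first tap spread widely for this gene, with first tap 3 above and first taps 1 and 2 below every second-tap library.

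Intestinal metastases differed from orthotopic tumours in 3 factors, with Snai2 and Zeb1 lower and Snai3 higher. Over all genes 15.5% were called in this comparison, so 3 of 9 rests on a broad background of change. Snai2 had 1.68, 2.89 and 4.84 CPM in intestinal metastases, against 14.2, 14.2 and 6.84 CPM in orthotopic tumours. The groups did not overlap, as for 44.8% of all genes, and Snai2 fell by 1.89 ± 0.53 (log2, edgeR adjusted p = 0.0318). Zeb1 had 31.6, 40.2 and 68.6 CPM in intestinal metastases, against 128, 152 and 107 CPM in orthotopic tumours. These groups did not overlap either, and Zeb1 fell by 1.46 ± 0.34 (adjusted p = 0.016). Intestinal metastasis 3 was the highest of its group for both genes.

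Snai3 (chr8:122454208-122460733, minus strand), the least studied SNAI gene, which in mouse is also known from muscle and lymphoid cells, was the member that rose. It had 3.36, 1.83 and 1.67 CPM in intestinal metastases, from 32, 43 and 47 counts, against 0.104, 0.133 and 0.316 CPM in orthotopic tumours, from 4, 4 and 12 counts. The log2 fold change was 3.59 ± 0.86 (edgeR adjusted p = 0.0175). Healthy intestine had 2.41 CPM, inside the range of the metastases. T cell markers were higher in the same samples. Of 12 such markers 11 rose against orthotopic tumours, where 10.4% of all genes did, and they summed to 191, 393 and 105 CPM in intestinal metastases and 435 CPM in healthy intestine, against 15.1, 6.58 and 5.53 CPM in orthotopic tumours. Of 8 smooth muscle markers 6 rose, with sums of 1515 to 2691 CPM in intestinal metastases, against 245 to 419 CPM in orthotopic tumours. The part of either cell type in the Snai3 level was not tested.

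The 3 calls depended on single libraries. Without orthotopic tumour 1, orthotopic tumour 2 or intestinal metastasis 1, none of the 3 was called (adjusted p = 0.0501 to 0.1), and Snai2 and Zeb1 were not called without intestinal metastasis 2 (0.109 and 0.0706). Snai1 had 6.51, 5.60 and 8.83 CPM in intestinal metastases, against 17.8, 15.1 and 10.47 CPM in orthotopic tumours. The groups did not overlap, yet the log2 fold change of -1.05 ± 0.47 was not called (adjusted p = 0.149). Zeb2 had 53.3, 74.3 and 174 CPM in intestinal metastases, all below the orthotopic tumours, with a log2 fold change of -1.07 ± 0.69 (adjusted p = 0.309). Prrx1 spread from 5.88 CPM in intestinal metastasis 1 to 97.1 CPM in intestinal metastasis 2, with 40.6 CPM in the third, and overlapped orthotopic tumours.

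Set against both taps together, intestinal metastases carried more Snai1, Snai3 and Prrx1 and less Zeb2. These 4 of 9 calls compare with 18.3% of all genes. The labels do not say whether a first and a second tap came from 1 mouse, so the 6 ascites libraries may stand for fewer mice and these p-values may be too small. Set against 1 tap alone, Snai1 and Zeb2 were called either way, Snai3 was not called against the first tap (adjusted p = 0.0926) and Prrx1 against neither (0.116 for the second tap and 0.129 for the first). Snai1 had 6.51, 5.60 and 8.83 CPM in intestinal metastases, against 0.808 to 1.81 CPM with a median of 1.08 CPM in the 6 ascites libraries. The groups did not overlap, as for 23.3% of all genes, with a log2 fold change of 2.56 ± 0.40 (edgeR adjusted p = 0.000808), and the call held without any 1 library (0.00251 to 0.00385). Snai3 had 1.67 to 3.36 CPM in intestinal metastases, against 0.0735 to 0.605 CPM in ascites, also without overlap (log2 fold change 2.55 ± 0.65, adjusted p = 0.0176). Without intestinal metastasis 1 it was 2.23 (adjusted p = 0.0794).

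Zeb2 averaged 101 ± 64 CPM in intestinal metastases (SD, n = 3) and 627 ± 454 CPM in ascites (SD, n = 6). It fell by 2.64 ± 0.68 (log2, edgeR adjusted p = 0.0179), although intestinal metastasis 3, at 174 CPM, overlapped first tap 3, at 160 CPM. The call did not hold without intestinal metastasis 1 or 2 (adjusted p = 0.102 and 0.111). Of 11 macrophage markers 10 fell, where 5.85% of all genes did, with sums of 352 to 978 CPM in intestinal metastases, against 2283 to 16350 CPM in ascites, and the part of this difference in the fall of Zeb2 was not tested. Prrx1 averaged 47.8 ± 46.0 CPM in intestinal metastases and 10.1 ± 7.2 CPM in ascites, and rose (log2 fold change 2.25 ± 0.70, adjusted p = 0.0439) although intestinal metastasis 1, at 5.88 CPM, lay inside the ascites range. Without intestinal metastasis 2 it was 1.32 (adjusted p = 0.317), and with library size alone as the scale it was 1.96 (adjusted p = 0.0661). Of 10 fibroblast markers 6 rose and of 8 smooth muscle markers 7 rose beside it, where 12.4% of all genes did, and their part was not tested. Snai2 and Zeb1 were not called, at 3.14 ± 1.60 and 46.8 ± 19.4 CPM in intestinal metastases and 2.77 ± 1.21 and 51.0 ± 10.7 CPM in ascites (adjusted p = 0.8 and 0.803).

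**Figure D3:**
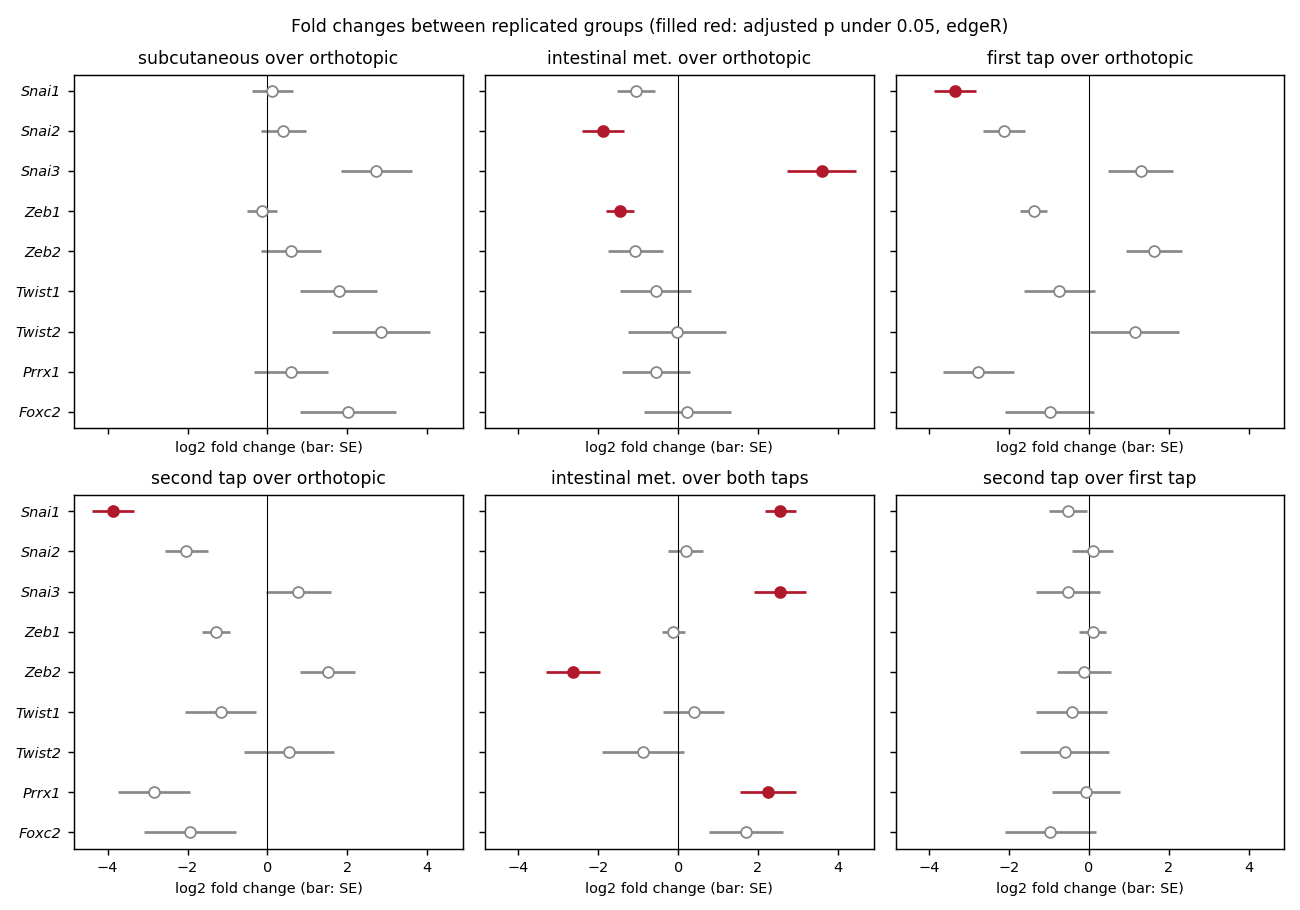
Log2 fold changes of the 9 factors in 6 comparisons between replicated groups, with bars for the standard error and filled red points for an edgeR adjusted p under 0.05. Snai1 stands at -3.87 and -3.35 in the taps against orthotopic tumours and at 2.56 in intestinal metastases against the taps. No factor passed between subcutaneous and orthotopic tumours or between the taps.

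No factor was called between subcutaneous and orthotopic tumours, where 0.0132% of all genes were. By unadjusted p 2 of the 9 were under 0.05 (Snai3 and Twist2), as were 20.7% of all genes, a share near that of the factors, and DESeq2 called 1 (Snai3, adjusted p = 0.0293) among 10.1% of genes. Twist1 had 10.46 and 9.67 CPM in subcutaneous tumours 2 and 3, against 2.91, 4.06 and 1.79 CPM in orthotopic tumours. Twist2, a factor of dermis and dermal fibroblasts, had 2.21 and 1.57 CPM in subcutaneous tumours, against 0.337, 0.399 and 0.0526 CPM in orthotopic tumours. Foxc2, known from lymphatic vessels and mesoderm, had 2.26 and 5.60 CPM in subcutaneous tumours, against 1.53, 0.532 and 0.842 CPM in orthotopic tumours. For all 3, and for Snai3, the groups did not overlap, which also held for 41.1% of all genes, with log2 fold changes of 1.79 ± 0.97 for Twist1, 2.84 ± 1.23 for Twist2 and 2.01 ± 1.196 for Foxc2, none of them called (edgeR adjusted p = 0.301, 0.221 and 0.338).

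The subcutaneous pair disagreed on other members. Snai1 had 6.51 CPM in subcutaneous tumour 2 and 25.1 CPM in subcutaneous tumour 3, the highest level of any library. Snai3 had 2.08 CPM in subcutaneous tumour 2 and 0.393 CPM in subcutaneous tumour 3. Marker sums split the pair as well. B cell markers summed to 2650 and 14.04 CPM, T cell markers to 364 and 32.1 CPM, and adipocyte markers to 6241 and 27.5 CPM in tumours 2 and 3, while keratinocyte markers summed to 87.7 and 810 CPM. The part of these cells in the Snai1 and Snai3 levels was not tested. Zeb1 (142 and 92.2 CPM), Zeb2 (432 and 207 CPM), Prrx1 (83.8 and 129 CPM) and Snai2 (14.02 and 16.8 CPM) gave log2 fold changes under 1 in size against orthotopic tumours.

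The cultured line, a single library with no replicate check, had the highest Twist2 and Snai2 of the 17 libraries and no Foxc2 reads. Twist2 had 8.48 CPM in the line from 320 counts, and no other library passed 2.24 CPM. Foxc2 had 0 counts in the line, as it had in intestinal metastasis 1. Taking the level that 3 counts would give in the line as a floor (0.0795 CPM), Foxc2 was at least 49.4-fold higher in subcutaneous tumours, 13.9-fold in intestinal metastases, 3.13-fold in the second tap, 6.21-fold in the first tap and 12.2-fold in orthotopic tumours. Single libraries moved several bounds, to 28.4-fold without subcutaneous tumour 3, 7.48-fold without intestinal metastasis 3 and 1.85-fold without first tap 3, and up to 20.9-fold without intestinal metastasis 1. First tap 2, at 0.0756 CPM from 2 counts, was itself under the floor. These bounds cover counting error in the line only and take the group means as measured, with 10, 8 and 6 counts in the second tap. No Foxc2 difference from the line was called by edgeR. Snai2 had 30.3 CPM in the line, with healthy ovary next at 26.8 CPM, and Snai1 had 20.7 CPM, below the 25.1 CPM of subcutaneous tumour 3.

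Against the line, Snai2 fell in intestinal metastases by 3.25 ± 0.65 (log2, edgeR adjusted p = 0.011) and Twist2 by 5.02 ± 1.43 (adjusted p = 0.0357), the 2 factors called there, where 15.2% of all genes were. Twist2 rested on 0, 3 and 16 counts in the metastases and was not called without intestinal metastasis 1 or 2 (adjusted p = 0.0805 and 0.104). In the second tap Snai1 fell by 4.38 ± 0.61 and Snai2 by 3.39 ± 0.65 (adjusted p = 0.00731 and 0.0175), against 4.43% of all genes called, and Snai2 was not called without second tap 1 (adjusted p = 0.0586). The same 2 factors were the ones called in the first tap, where 4.22% of genes were. No factor was called in subcutaneous tumours (9.49% of genes called) or in orthotopic tumours (3.2%), where 2 factors each had an unadjusted p under 0.05 (29.1% and 20.9% of all genes did, shares above and near that of the factors) and DESeq2 called 2 each (26.7% and 16.8% of genes). In orthotopic tumours Twist2 averaged 0.263 ± 0.185 CPM (SD, n = 3) while the line had 8.48 CPM, a log2 fold change of -5.00 ± 1.41 (adjusted p = 0.0753). Prrx1 had 106 ± 32 CPM in subcutaneous tumours (SD, n = 2) and 70.4 ± 28.7 CPM in orthotopic tumours (SD, n = 3) while the line had 8.74 CPM, with log2 fold changes of 3.60 ± 1.54 and 3.01 ± 1.45 (adjusted p = 0.146 and 0.263). Of 10 fibroblast markers 3 (Lum, Thy1 and Dpep1) were at 0 counts in the line, while Dcn and Col6a1 had 5620 and 7652 counts there. Of the 10, 5 rose in subcutaneous tumours and 2 in orthotopic tumours, where 6.25% and 2.37% of all genes did, and their part in Prrx1 was not tested.

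No factor was called against the healthy organs, which were also 1 library each. Against healthy ovary, 0 of 9 factors were called in orthotopic tumours (0.6% of all genes), with 2 under an unadjusted p of 0.05 (11.2% of all genes) and none called by DESeq2 (3.44% of genes). Prrx1 averaged 70.4 ± 28.7 CPM in orthotopic tumours (SD, n = 3), against 70.8 CPM in healthy ovary. Zeb2 averaged 211 ± 24 CPM in orthotopic tumours, against 338 CPM in healthy ovary, and Snai2 11.7 ± 4.2 CPM, against 26.8 CPM. Snai1 averaged 14.5 ± 3.7 CPM in orthotopic tumours (SD, n = 3), against 6.98 CPM in healthy ovary. Against healthy intestine, 0 of 9 factors were called in intestinal metastases (0% of all genes), with 1 under an unadjusted p of 0.05 (2.58% of all genes) and none called by DESeq2 (0.198% of genes). That factor was Snai1, at 6.51, 5.60 and 8.83 CPM in intestinal metastases, against 1.90 CPM in healthy intestine, a log2 fold change of 1.88 ± 0.76 (adjusted p = 1). Healthy intestine lay inside the range of the metastases for Snai2, Snai3, Zeb1, Zeb2, Twist2, Prrx1 and Foxc2, and below it for Snai1 and Twist1.

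Ordered by mean, Snai1 ran from the line at 20.7 CPM through subcutaneous and orthotopic tumours, then intestinal metastases and healthy ovary, then healthy intestine, to the first and second tap. Within that order the line overlapped the subcutaneous range, subcutaneous overlapped orthotopic, and the taps overlapped each other, while orthotopic tumours and the metastases did not overlap, nor did healthy intestine and the groups on either side of it. Zeb1 ran from orthotopic and subcutaneous tumours, which overlapped, through healthy ovary and the line to the taps, intestinal metastases and healthy intestine. Of these the taps and the metastases overlapped, healthy intestine, at 42.1 CPM, lay inside the ranges of the first tap and the metastases and just below the second tap, and the line, at 67.5 CPM, lay inside the range of the metastases. Zeb2 had the taps on top, then healthy ovary, subcutaneous and orthotopic tumours, the line, healthy intestine and intestinal metastases. Prrx1 had subcutaneous tumours on top and the line at the bottom, with the line inside the range of both taps.

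Low Cdh1, the classical target, was found beside both high and low Snai1. It had 1775, 1564 and 442 CPM in intestinal metastases, 5.74, 26.1 and 8.998 CPM in the second tap and 37.8, 14.8 and 14.8 CPM in the first tap, against 9.29, 5.52 and 14.4 CPM in orthotopic tumours. The second tap overlapped orthotopic tumours in Cdh1, while the first tap, with 14.76 CPM as its lowest, lay just above the 14.42 CPM of the highest orthotopic tumour. The line combined 20.7 CPM of Snai1 and 30.3 CPM of Snai2 with 94.0 CPM of Cdh1. In subcutaneous tumours Cdh1 had 55.3 and 49.7 CPM. Intestinal metastases 1 and 2 were the highest libraries for Cdh1, followed by healthy intestine with 1251 CPM and healthy ovary with 485 CPM. Zeb1 and Cdh1 ran in opposite orders within the metastases, with 31.6, 40.2 and 68.6 CPM of Zeb1 beside 1775, 1564 and 442 CPM of Cdh1. This was not particular to Zeb1, since Snai2, Zeb2, Twist2 and Foxc2 ran in the same order as Zeb1. Snai1, Twist1 and Prrx1 followed neither order, and Snai3 followed that of Cdh1. Vim, the mesenchymal filament vimentin, had 159 to 1292 CPM in intestinal metastases. It had 781 to 4024 CPM in ascites, against 1046 to 2459 CPM in orthotopic tumours, and was called in none of the replicated comparisons.

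**Figure D4:**
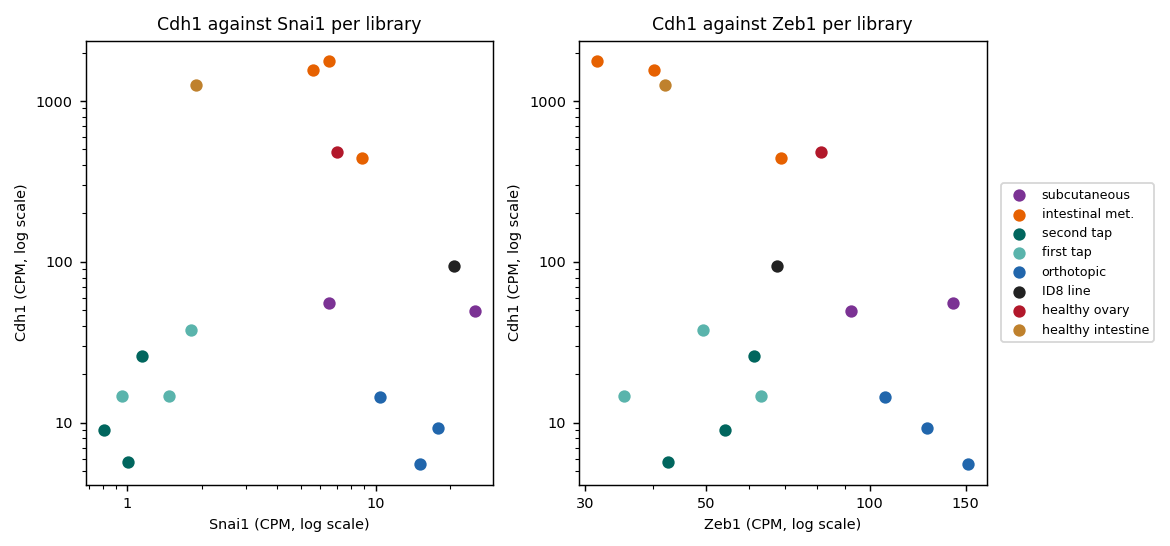
Cdh1 against Snai1 (left) and against Zeb1 (right) in each of 17 libraries, in CPM on log scales, coloured by group. Ascites libraries sit at low Snai1 and low Cdh1 together, orthotopic tumours at high Snai1 and Zeb1 and low Cdh1, and intestinal metastases with the healthy organs at the top for Cdh1.

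Many epithelial genes that these factors repress or oppose were higher in intestinal metastases. Of 20 epithelial targets, 14 rose against orthotopic tumours and none fell, with a median log2 fold change of 3.796, against 0.06 over all genes tested, of which 10.4% rose. Cldn7, a tight junction claudin, rose by 9.01 ± 0.67, Tjp3, a junction scaffold, by 7.95 ± 0.84, Pkp3, a desmosome protein, by 7.52 ± 0.93 and Cdh1 by 7.01 ± 0.84 (edgeR adjusted p = 0.000167 to 0.000707). Crb3 and Epcam, whose promoter windows hold the motif, rose by 5.96 ± 0.76 and 6.03 ± 1.13 (adjusted p = 0.000775 and 0.00529). Krt18, whose window also holds the motif, overlapped, with 70.1 to 118 CPM in intestinal metastases against 46.0 to 106 CPM in orthotopic tumours. Of 14 epithelial gatekeepers, factors that hold cells in the epithelial state, 10 rose and none fell. Among them were Klf5 at 5.89 ± 0.87, Ovol1 at 5.82 ± 0.91, Elf3 at 5.86 ± 1.1 and the splicing regulator Esrp1 at 7.46 ± 1.58 (adjusted p = 0.00149 to 0.00998). Against both taps, 14 targets and 7 gatekeepers rose, where 12.4% of all genes did, and none fell.

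The same libraries held intestinal epithelial markers, of which 9 of 10 rose both against orthotopic tumours and against ascites. Of all genes 10.4% and 12.4% rose in these comparisons. Their summed level was 6291 to 19350 CPM in intestinal metastases. In orthotopic tumours it was 62.7 to 144 CPM, and in ascites 13.4 to 26.6 CPM. The part of normal gut lining in the epithelial genes, and of its admixture in the lower Zeb1 and Snai2, was not tested. Against healthy intestine Cdh1 had a log2 fold change of 0.01 ± 0.91 in intestinal metastases, and 442 to 1775 CPM enclosed the 1251 CPM of healthy intestine. Few epithelial genes were called in ascites, and few genes of any kind were. Against orthotopic tumours 1.09% of all genes were called in the second tap and 1.58% in the first. In the second tap no target and no gatekeeper was called against orthotopic tumours, and in the first tap only Ocln, the tight junction gene occludin, was, which fell by 3.92 ± 0.76 (adjusted p = 0.0339).

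Of 21 mesenchymal effector genes, 2 fell in the second tap and 5 in the first, and none rose, against orthotopic tumours, where 0.578% and 0.891% of all genes fell. Postn, a matrix protein of fibroblasts, fell by 5.20 ± 0.86 in the second tap and by 5.34 ± 0.87 in the first (edgeR adjusted p = 0.0275 and 0.0242). Mmp2, a matrix protease, fell by 5.71 ± 1.04 and by 6.57 ± 1.08 (adjusted p = 0.0405 and 0.0242). The direction was not shared by all, since Fn1, the matrix protein fibronectin, had 5293 to 12230 CPM in the second tap and 2587 to 21510 CPM in the first tap, against 759 to 2280 CPM in orthotopic tumours, without overlap and without a call (log2 fold changes 2.23 ± 0.96 and 2.38 ± 0.96, adjusted p = 0.275 and 0.208). In intestinal metastases 1 of 21 rose against orthotopic tumours, Acta2 (3.02 ± 0.53), the actin of smooth muscle, and 1 fell, the receptor Axl (-2.43 ± 0.53), while 10.4% of all genes rose and 5.13% fell. Against both taps 7 rose and 2 fell, while 12.4% of all genes rose and 5.85% fell, and Acta2 at 5.09 ± 0.44 and Postn at 5.13 ± 0.64 had the smallest p.

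Of 16 upstream inducers and signal transducers, none was called in either tap against orthotopic tumours. Of all genes 1.09% were called there in the second tap and 1.58% in the first. In intestinal metastases 2 rose, where 10.4% of all genes did, Smad4 (1.06 ± 0.31, edgeR adjusted p = 0.0396) and the receptor gene Met (2.07 ± 0.62, adjusted p = 0.0425). In the metastases against both taps, where 12.4% of all genes rose and 5.85% fell, Smad4 and Smad7 rose. Tgfb1, the main EMT-inducing ligand, fell there by 1.74 ± 0.46 and the Notch ligand Jag1 by 1.67 ± 0.41. Of 18 partners and regulators, none was called in either tap and 3 in intestinal metastases against orthotopic tumours, near the 15.5% of all genes called there. Btrc, part of a ligase that degrades SNAI1, fell by 1.82 ± 0.38, Hdac2, a corepressor enzyme, fell by 1.07 ± 0.33, and Limd1 rose by 1.31 ± 0.33 (adjusted p = 0.00947, 0.0436 and 0.0201). Among other EMT-linked factors, Klf8 fell in the metastases against orthotopic tumours by 2.51 ± 0.67 and Sox9 by 2.40 ± 0.75. No member of these lists was called in subcutaneous against orthotopic tumours, where 0.0132% of all genes were.

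**Figure D5:**
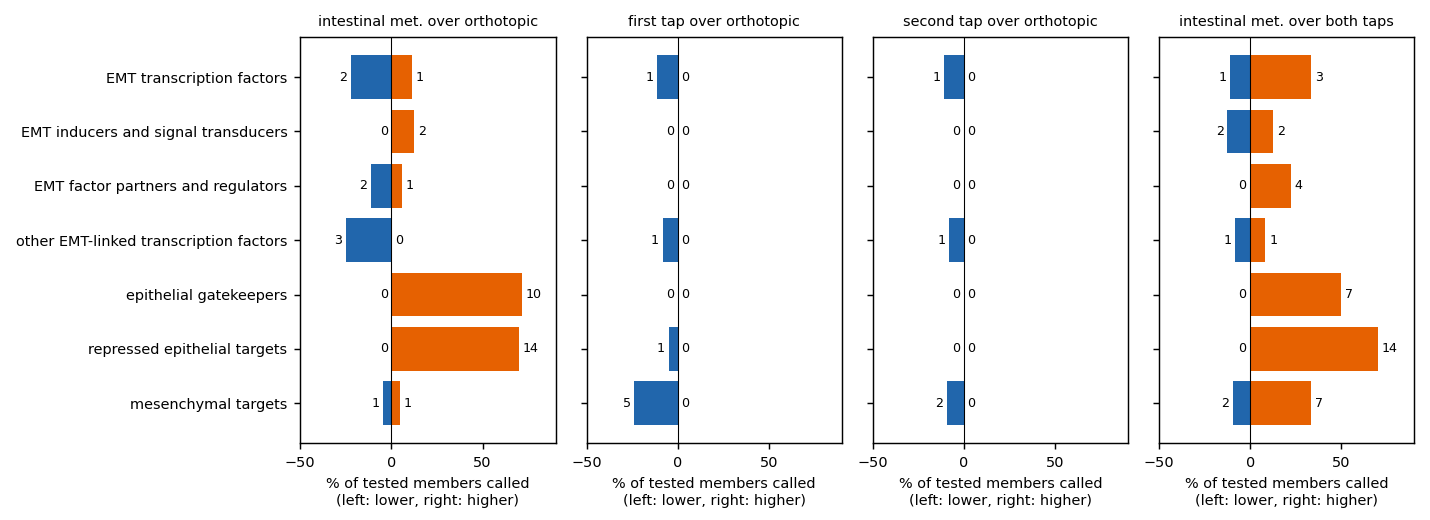
Percent of tested members of 7 gene lists called lower (left, blue) or higher (right, orange) in 4 comparisons, with the number called beside each bar. Epithelial targets (14 of 20) and gatekeepers (10 of 14) rose in intestinal metastases against orthotopic tumours, and mesenchymal targets fell in the first tap (5 of 21) and the second (2 of 21).

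The genes closest in pattern to each variable factor were found by the root mean square difference of centred log2(CPM + 1) over the 17 libraries, among 11853 genes. For Snai1 these were Col5a1 (0.68), Zfp354c, Adamts4, Ube2e2 and Hey1. For Snai2 they were Trib2 (0.57), Gpt2, Gata2, Pmepa1 and Tlcd1. For Zeb2 they were Pla2g15 (0.44), Atp13a2, Ifi204 and Notch2, each closer than any match of the other 3. For Prrx1 they were Notch3 (0.69), Col15a1, Aplnr, Cpxm1 and Gpc6. Snai3, Zeb1, Twist1, Twist2 and Foxc2 varied too little on this scale, with an SD under 1, to be matched.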

How the data were processed

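Total RNA was sequenced with a directional NEBNext protocol, per the labels' protocols. The authors deposited whole-number read counts per Ensembl gene in 2 files that held identical tables. HISAT, HISAT2, featureCounts and DESeq2, and the builds hg19 and mm39, are named per the submitters' processing notes, with no versions given in the sources used here. In the table, 1 column of sample values matched no labelled sample and was not used. Coordinates are from a GRCm38 annotation (gene models from GENCODE, promoters from RefSeq), used for position, exon length and sequence only and not mixed with the counts' build. Patj and Adgre1 were matched by identifier.

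All 17 libraries were fitted in 1 edgeR 4.0.16 quasi-likelihood model (R 4.3.3, limma 3.58.1, TMM scaling, genes over 0.5 CPM in at least 2 libraries, 9 residual degrees of freedom). P-values were adjusted over all genes tested by Benjamini and Hochberg's method, and a gene was called at an adjusted p under 0.05. Comparisons with the line, healthy ovary and healthy intestine assume that a lone library varies like the replicated groups. The labels tie no samples to animals, so p-values measure only the spread between these samples, which may be technical. The fit was tested on simulated data. Ratios used counts plus 0.5. Alternatives were DESeq2 1.42.0, other scalings, no filter, only the groups compared, a replicate block, leaving out each library and, chosen after seeing the data, 1 tap alone in place of both.

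The members and lists were chosen with earlier results of these data known. All 9 factors are named, with up to 4 members of each list per comparison by smallest p, Cdh1 and Vim, and the 5 genes nearest in pattern to factors with an SD of at least 1. Some genes that this rule names are not reported here. Crb3 and Epcam, named for their promoters, Fn1, and list members beyond the first 4 were added after their values were seen. The floor covers counting error in the line only, while the SE and SD include the spread between libraries.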

Additional observations from a re-analysis of the deposited data

How the results depend on the processing

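Directions did not reverse in any alternative for the called factors or those with a log2 fold change of at least 1 in size. Of these values, 526 kept their side of the threshold, 40 lost a call and 23 gained one. Leaving out 1 library moved the number of factors called to between 0 and 1 for the second tap and between 0 and 2 for the first tap against orthotopic tumours (1 each with all libraries), between 0 and 3 for intestinal metastases against orthotopic tumours (3) and between 2 and 4 against both taps (4). Against the line it was between 1 and 3 for the second tap (2) and between 1 and 2 for intestinal metastases (2). With the first tap alone in place of both taps, chosen after seeing the data, 2 factors were called for intestinal metastases, and 3 with the second tap alone. DESeq2 called 1 factor for subcutaneous and 4 each for the second and first tap against orthotopic tumours, and 2 each for subcutaneous and orthotopic tumours against the line (0, 1, 1, 0 and 0 by edgeR). Fitting only the groups compared gave 5 factors for the second tap against orthotopic tumours, and the cause was not tested.

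Whether replicate numbers pair the samples is not settled, because deviations from the mean of so few libraries correlate for other reasons too. Over 26 same-numbered pairs the correlation of deviations ran from -0.557 to 0.441 (median 0.045), with 6 pairs over 0.1. Over 52 differently numbered pairs it ran from -0.352 to 0.673 (median -0.0225), with 5 pairs over 0.1. The subcutaneous tumours deviated from their mean by equal and opposite amounts, so their values repeat with the sign flipped (0.341 and -0.341 with first tap 2). These pairs are therefore not separate observations. Between the taps the correlation was 0.673 for second tap 2 with first tap 1 and 0.415 for second tap 1 with first tap 2. Under the same number it was 0.441 for replicate 3, -0.211 for replicate 2 and -0.557 for replicate 1. Second tap 3 gave -0.352 with first tap 1 and -0.111 with first tap 2. First tap 3 gave -0.335 with second tap 2 and -0.013 with second tap 1. These values do not show which samples shared a mouse. With a replicate block 0 factors were called for the first tap against orthotopic tumours (Snai1 adjusted p = 0.0504), and Snai2 in intestinal metastases against orthotopic tumours and Prrx1 against both taps were not called (adjusted p = 0.0565 and 0.0859). No block could be fitted for comparisons with the line and the healthy organs, which are 1 library each. Library size alone as the scale shifted the median of all genes by -0.29 for intestinal metastases against orthotopic tumours and by -0.25 against both taps. The lowest members, Snai3, Twist2 and Foxc2, rested on under 20 counts in several libraries, where differences of a few reads were not detectable.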
